A study of Bos taurus with 6 samples.

Results

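The genes described here are 8 members of the MOS and mitogen-activated protein kinase (MAPK) pathway that holds mature oocytes in meiotic arrest: MOS, MAP2K1, MAP2K2, MAPK3, RPS6KA1, RPS6KA2, RPS6KA3 and DUSP6. They were taken by symbol from a table of 20707 bovine (Bos taurus) genes, in which they fill 10 rows, because MAP2K1 and RPS6KA2 have 2 rows each. The study measured RNA in individual oocytes aspirated from the ovaries of cattle at slaughter. MII oocytes had spent 24 hours in maturation culture in vitro and stood at metaphase of the second meiotic division (3 libraries, MII14c, MII15 and MII15c). GV oocytes, still in prophase arrest with an intact germinal vesicle, were taken at aspiration (3 libraries, GV14, GV14c and GV15). No strain, genotype or animal age is given, both stages started from cumulus-oocyte complexes, and it is not stated whether the oocytes came from different animals.

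MOS is a germ cell kinase at the head of a relay. It phosphorylates the kinases MEK1 and MEK2 (genes MAP2K1 and MAP2K2), which phosphorylate ERK kinases such as ERK1 (MAPK3), and these activate the ribosomal S6 kinases of the RSK family (RPS6KA genes). Work in frogs and mice placed this relay downstream of stored MOS mRNA that is translated during maturation, and its activity helps to keep mature eggs in metaphase until fertilization. DUSP6 is a phosphatase that removes phosphate from ERK. RNA levels were measured here, and protein and phosphorylation were not.

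All values are RPKM, reads per kilobase of gene model and per 1 M mapped reads, and are relative to the total of each library. Setting levels side by side between genes rests on the length used for each gene. For MOS and MAPK3 that length differed from the annotated one. For RPS6KA1 and the MAP2K1 row on chromosome 10 it could not be pinned down. Library depth, recovered from the low values, was 21.27 to 32.55 M reads in MII and 20.22 to 29.92 M reads in GV. All 14 oocyte markers in the table, such as GDF9 and ZAR1, averaged at least 1 RPKM, and their summed level was 3423 to 4303 RPKM in MII against 7604 to 10704 RPKM in GV. Of 18 granulosa and cumulus markers, 6 averaged at least 1 RPKM; the summed level of the list was 112.9 to 121.2 RPKM in MII and 103.7 to 170.3 RPKM in GV. The receptors FSHR and LHCGR were at or near 0 in every library, whereas HAS2 averaged 59.5 RPKM in MII and 16.3 RPKM in GV, and STAR 35.4 RPKM in MII and 101.2 RPKM in GV; the part of other cells in the member values was not tested. Of 6 blood and immune markers, CD3E made up nearly all of the summed level, at 3.65, 1.45 and 1.43 RPKM in MII14c, MII15 and MII15c, against 6.499, 18.6 and 28.6 RPKM in GV14, GV14c and GV15. HBB and CD14 were listed at 0 in every library, and PTPRC, CD68 and TYROBP stayed under 1 RPKM. The authors used adapters diluted 1 in 50 for MII14c and MII15, against 1 in 30 for GV14 and 1 in 10 for GV15; no dilution is given for the columns MII15c and GV14c, which match no sample title. The titles MII14 (1 in 30) and GV15c (1 in 10) have no column in turn. Among the 4 columns with a known dilution, it cannot be told apart from stage.

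The deposited annotation places MOS on the minus strand at chr14:24973278-24978206, with a single coding exon of 999 nt at 24975950 to 24976948. The model runs 1258 nt beyond the coding part on the 5′ side and 2672 nt beyond it on the 3′ side. That 3′ flank was longer than those of 90.8% of 19521 coding genes, whose median was 341 nt and of which 26.4% had none. A flank is the genomic distance from the end of the coding part to the end of the model. It is not a measured length of the 3′ UTR. The annotation counted 2799 reads on the model, none of them spliced. DUSP6 (chr5:19275486-19280028) had 3 coding exons with flanks of 452 and 1319 nt on the 5′ and 3′ sides. RPS6KA3 (chrX:130193741-130301558) had 22 coding exons and a 3′ flank of 1938 nt. MAPK3 (chr25:26437044-26444129) had 9 coding exons and a 3′ flank of 1842 nt. The genome build of these coordinates is not given in the sources used here.

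**Figure D1:**
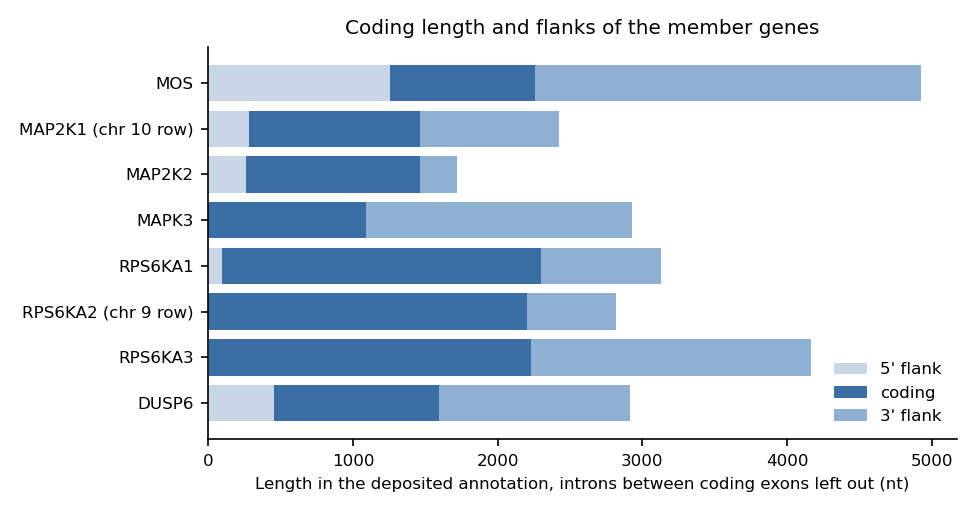
Coding length and flanks in nt of the 8 member rows with a coding model, with the introns between coding exons left out. MOS has the longest 3′ flank, 2672 nt beside 999 nt of coding sequence.

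Of the 10 member rows, 5 averaged at least 1 RPKM over the 6 libraries and were tested; they belong to 4 symbols, MOS, MAP2K1, RPS6KA3 and DUSP6. MAP2K1, on its chromosome 10 row, was the one member row called, and it was higher in MII. Across the whole table, 40.3% of 8671 tested genes were called by limma at an adjusted p under 0.05, 13.4% higher and 26.9% lower in MII. The stages did not overlap for 51.9% of tested genes. No tested member row was called lower; at an unadjusted p under 0.05 limma gave 0 member rows lower as well. Over all tested genes the log2 change had a median of -0.16 on the deposited scale, 0.05 after median-ratio scaling and 0.19 after quantile normalization. The calls over all genes were 1162 higher and 2329 lower as deposited, 1687 higher and 2059 lower after median-ratio scaling, and 2055 higher and 1828 lower after quantile normalization.

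MOS, which starts the relay, had low RPKM at both stages. Its level was 3.33, 1.44 and 3.52 RPKM in MII14c, MII15 and MII15c, against 3.50, 7.40 and 2.09 RPKM in GV14, GV14c and GV15. The stages overlapped, with GV14c above the other 5 libraries and MII15 below them. The log2 change of MOS was -0.43 (SE 0.44, 95% interval -1.42 to 0.56, limma adjusted p = 0.466). It was -0.76 without GV15, -0.14 without MII15 and -0.04 without GV14c. Relative to the median change of all tested genes it was -0.27. The 4929 nt of the annotated model did not turn its values into whole reads, and 2 shorter fitted lengths did, 4088 and 4184 nt. At 4088 nt, the closer to whole numbers, the values were 424, 125 and 469 reads in MII and 428, 814 and 173 reads in GV. The low RPKM rests in part on this length. MOS had 2433 reads over the 6 libraries at a mean of 3.55 RPKM. The MAP2K1 row on chromosome 5, fitted at 1106 nt, had 2243 reads at a mean of 12.6 RPKM. By mean level MOS ranked above 71.2% of all rows in MII and 71.9% in GV.

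MAP2K1 encodes MEK1, the kinase that MOS phosphorylates, and its chromosome 10 row (chr10:13238265-13312657, 11 coding exons) was the most abundant of the member rows. It had 136, 116 and 137 RPKM in MII14c, MII15 and MII15c, against 72.3, 52.1 and 65.8 RPKM in GV14, GV14c and GV15. Every MII library stood above every GV library. The means were 130 ± 11.5 RPKM in MII and 63.4 ± 10.3 RPKM in GV (SD, n = 3 each). The log2 change of MAP2K1 was 1.03 (SE 0.21, 95% interval 0.55 to 1.504), a ratio of means of 2.04 (limma adjusted p = 0.00475). It lay 1.19 above the median change of all tested genes. The row ranked above 97.7% of all rows in MII and 94.6% in GV. Leaving out any 1 library kept the call, with adjusted p of 0.00602 to 0.0282. Without GV14c and MII15c, the columns that match no sample title, its log2 change was 0.86 and the call was lost (limma adjusted p = 0.0656).

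The second row with the symbol MAP2K1 lies on chromosome 5 (chr5:39642677-39643783). It is a single model of 1107 nt with no coding feature. Its level was 16.0, 21.0 and 13.9 RPKM in MII14c, MII15 and MII15c, against 10.7, 3.53 and 10.7 RPKM in GV14, GV14c and GV15. These groups did not overlap either. The log2 change was 1.05 (SE 0.40), and limma's adjusted p = 0.0634 missed the threshold; without GV14c the log2 change was 0.59. After median-ratio scaling the adjusted p of this MAP2K1 row was 0.0441, and it was 0.0407 after quantile normalization and 0.0482 on the TPM scale. The row amounted to 11.8%, 18.0% and 10.1% of the chromosome 10 row in MII14c, MII15 and MII15c, against 14.8%, 6.77% and 16.3% in GV14, GV14c and GV15 (two-sided exact permutation p = 0.9). How the authors' counting divided reads between 2 rows of 1 symbol is not stated, so the split between them is uncertain. Their sum was 147 ± 7.96 RPKM in MII and 71.8 ± 14.3 RPKM in GV (SD, n = 3 each).

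MAP2K2 encodes MEK2, the close relative of MEK1, and was near the limit of detection in every MII library and in GV15. Its level was 0.205, 0.027 and 0.071 RPKM in MII14c, MII15 and MII15c, against 1.11, 0.929 and 0.057 RPKM in GV14, GV14c and GV15. GV15 fell among the MII libraries, so the stages overlapped (two-sided exact permutation p = 0.3). With the coding length plus flanks of 1721 nt these values were 11, 1 and 4 reads in MII and 57, 43 and 2 reads in GV. The chromosome 10 row of MAP2K1 made up 99.85%, 99.98% and 99.95% of the summed RPKM of MAP2K1 and MAP2K2 in MII14c, MII15 and MII15c, against 98.5%, 98.2% and 99.9% in GV14, GV14c and GV15.

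MAPK3 encodes ERK1. Its level was 0.226, 0.022 and 0.230 RPKM in MII14c, MII15 and MII15c, against 0.376, 2.16 and 0.371 RPKM in GV14, GV14c and GV15. All 3 MII libraries were below all 3 GV libraries, and GV14c stood far above the other GV libraries (two-sided exact permutation p = 0.1, the smallest that 3 against 3 allows). At a fitted length of 2135 nt, shorter than coding part plus flank, these were 15, 1 and 16 reads in MII and 24, 124 and 16 reads in GV. Its mean was under 1 RPKM, so it was not tested; with no filter on low values limma's adjusted p for MAPK3 was 0.409.

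**Figure D2:**
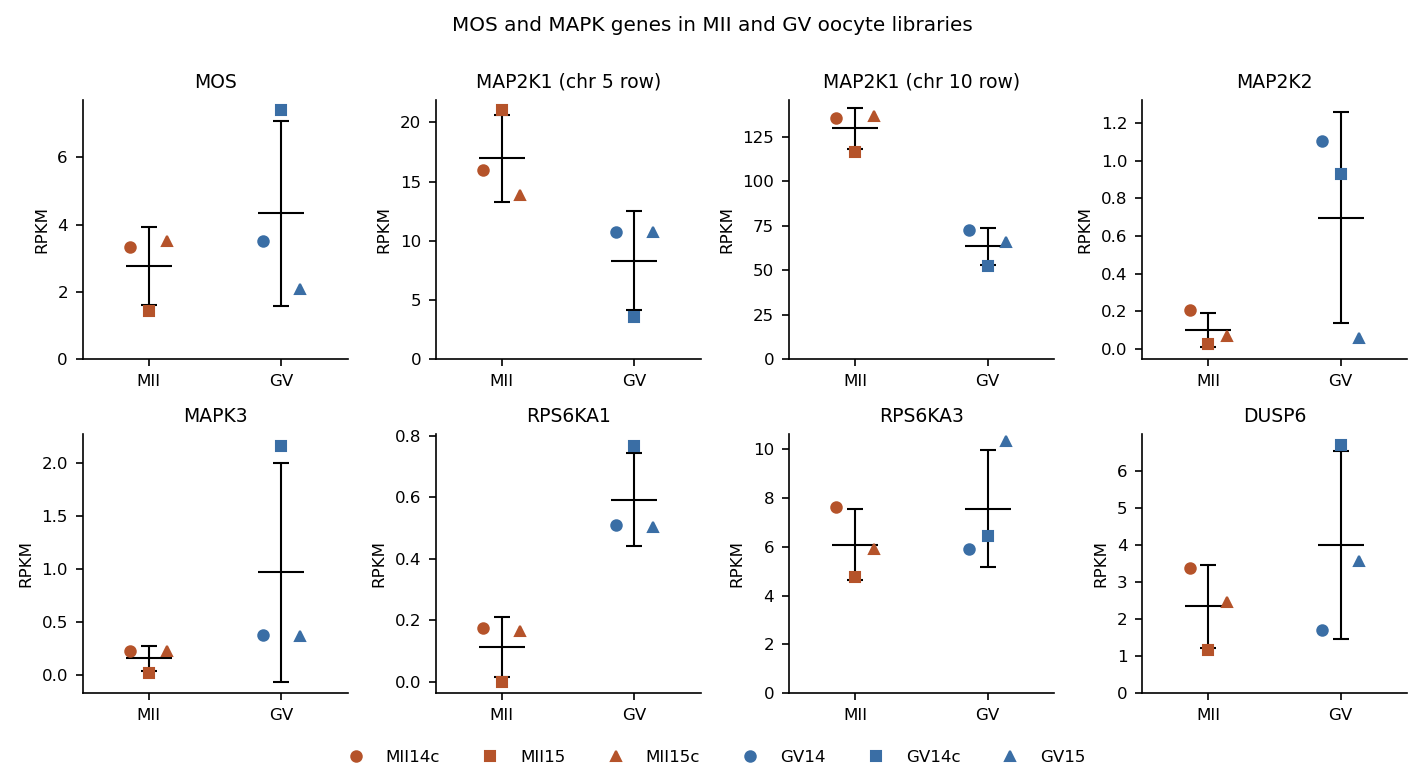
RPKM of 8 member rows in each library, MII left of GV; bars give the mean and SD of 3 libraries, and each panel has its own scale. The 2 MAP2K1 rows are higher in every MII library, while MOS, RPS6KA3 and DUSP6 overlap between the stages.

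The RSK genes encode kinases that ERK activates. RPS6KA3 (RSK2) was the most abundant of the 3 members, at 7.61, 4.74 and 5.89 RPKM in MII14c, MII15 and MII15c, against 5.91, 6.44 and 10.3 RPKM in GV14, GV14c and GV15. The stages overlapped, and GV15 was the highest library. The log2 change of RPS6KA3 was -0.26 (SE 0.32, 95% interval -0.98 to 0.47, limma adjusted p = 0.557), and after quantile normalization it was 0.11. It was -0.41 without MII14c, -0.39 without GV14, -0.12 without MII15 and -0.04 without GV15. At a fitted length of 4194 nt the values were 993, 423 and 804 reads in MII and 742, 727 and 874 reads in GV.

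RPS6KA1 (RSK1) was at 0.174, 0 and 0.166 RPKM in MII14c, MII15 and MII15c, against 0.509, 0.767 and 0.503 RPKM in GV14, GV14c and GV15. Every MII library lay below every GV library (two-sided exact permutation p = 0.1). It was under the filter for testing; with no filter limma's adjusted p for RPS6KA1 was 0.0404. RPS6KA2 (RSK3) on chromosome 9 was at 0.011 RPKM in MII14c and 0 in the other MII libraries, against 0.053 RPKM in GV14c and 0 in the other GV libraries, or 5 reads in all. A further row with the symbol RPS6KA2 is named bta-mir-502b, a microRNA on chromosome X, in the deposited annotation and is not read as RPS6KA2. That row had 0.566, 0 and 0.812 RPKM in MII14c, MII15 and MII15c, against 0, 0.655 and 1.31 RPKM in GV14, GV14c and GV15.

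RPS6KA3 supplied 97.6%, 100% and 97.3% of the summed RPKM of RPS6KA1, RPS6KA2 (chromosome 9 row) and RPS6KA3 in MII14c, MII15 and MII15c, against 92.1%, 88.7% and 95.3% in GV14, GV14c and GV15. The difference was 6.25 percentage points with no overlap (two-sided exact permutation p = 0.1). The rest of the sum was nearly all RPS6KA1, which was under the filter for testing and at 0 in MII15. RPS6KA6 (RSK4), no member and named after its values were seen, reached 12.7, 2.72 and 12.0 RPKM in MII14c, MII15 and MII15c, against 4.02, 3.66 and 4.57 RPKM in GV14, GV14c and GV15. Its log2 change was 0.78 (limma adjusted p = 0.234), with MII15 the lowest of all 6 libraries. With RPS6KA6 in the sum, the RPS6KA3 share was 37.2%, 63.5% and 32.7% in MII14c, MII15 and MII15c, against 56.6%, 59.0% and 67.0% in GV14, GV14c and GV15. The difference then turned round, to -16.4 percentage points (two-sided exact permutation p = 0.3).

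**Figure D3:**
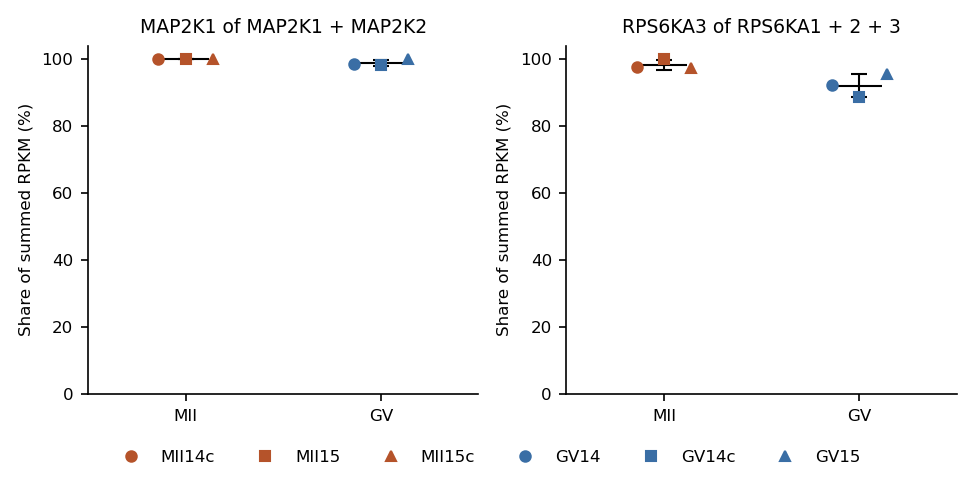
Share in percent of the summed RPKM held by MAP2K1 (chromosome 10 row) in MAP2K1 plus MAP2K2, and by RPS6KA3 in RPS6KA1, RPS6KA2 and RPS6KA3 without RPS6KA6, MII left of GV, with mean and SD of 3 libraries. The RPS6KA3 share is 97.3% to 100% in MII and 88.7% to 95.3% in GV.

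DUSP6, the ERK phosphatase, was at 3.39, 1.18 and 2.46 RPKM in MII14c, MII15 and MII15c, against 1.72, 6.71 and 3.58 RPKM in GV14, GV14c and GV15. The stages overlapped, and GV14c was again the highest library and MII15 the lowest. The log2 change of DUSP6 was -0.51 (SE 0.45, 95% interval -1.52 to 0.50, limma adjusted p = 0.393). It was -0.89 without GV14, -0.23 without MII15 and -0.14 without GV14c. At 2917 nt, the coding length plus both flanks, its values were 308, 73 and 234 reads in MII and 150, 527 and 211 reads in GV.

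MOS and DUSP6 were higher in the libraries whose names end in c than in the others of the same stage. For MOS the ratio was 2.38 in MII and 2.65 in GV, and for DUSP6 it was 2.49 in MII and 2.54 in GV. What the letter stands for is not stated. The c libraries stood above the others within both stages for 32.6% of all tested genes. The chromosome 5 row of MAP2K1 went the other way, with a ratio of 0.711 in MII and 0.329 in GV. The share of all tested genes that went that way was not computed. Each ratio sets 2 libraries against 1, because MII15 alone lacks the letter in MII and GV14c alone carries it in GV. With the letter as a term in the fit, limma's adjusted p was 0.0604 for MOS, 0.0537 for DUSP6 and 0.002 for that MAP2K1 row. That fit called 1468 of all tested genes higher and 2975 lower, against 1162 and 2329 without the term.

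**Figure D4:**
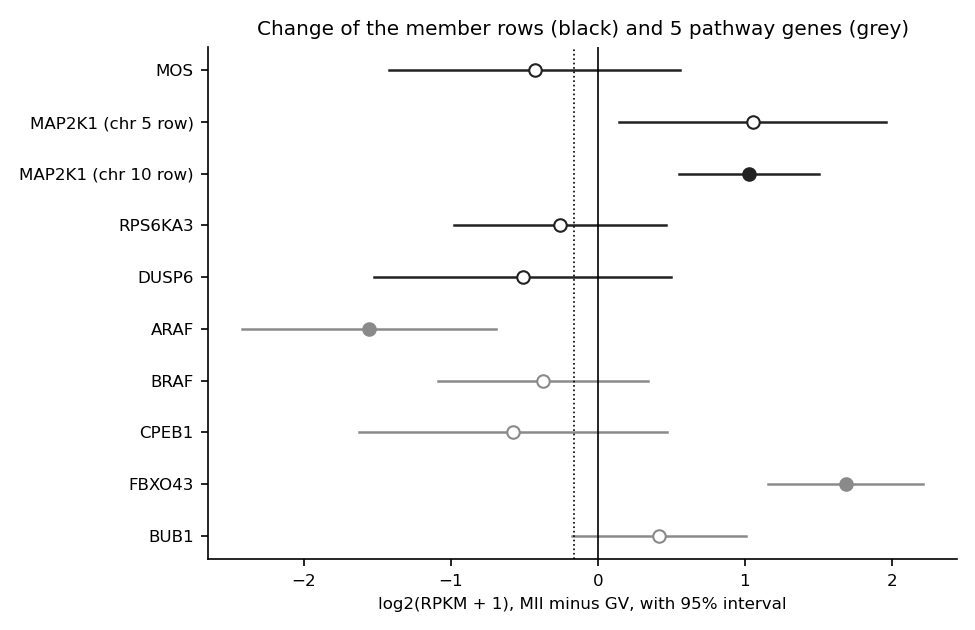
Log2 change of RPKM + 1, MII minus GV, with its 95% interval, for the 5 tested member rows (black) and 5 further pathway genes (grey); filled points passed limma's test and the dotted line is the median of all tested genes, -0.16. MAP2K1 on chromosome 10 (1.03) is the one filled member row.

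For each tested member row the genes of most similar pattern were found by Pearson's r of log2(RPKM + 1) over the 6 libraries, among at least 7097 genes with a symbol of their own. They were SESTD1 (r = 0.997) and PDS5A (r = 0.996) for MAP2K1 on chromosome 10. SESTD1 had 115, 99.1 and 126 RPKM in MII14c, MII15 and MII15c, against 49.1, 34.7 and 46.1 RPKM in GV14, GV14c and GV15. POLR2B and RHOU were nearest to the chromosome 5 row, ST5 and PXMP2 to MOS, AZI2 and TCN1 to RPS6KA3, and CREM and GJC1 to DUSP6, with r of 0.971 to 0.997. These are descriptions over 6 libraries, 3 of each stage, which also differ in depth.

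Kinases and targets around the relay were mixed in direction. Of the genes listed with it, FBXO43 was higher and ARAF lower in MII, and BRAF, CPEB1 and BUB1 did not pass. FBXO43, which RSK phosphorylates in frog eggs and which holds back the anaphase-promoting complex, had 43.1, 57.1 and 61.2 RPKM in MII14c, MII15 and MII15c, against 17.5, 15.2 and 14.97 RPKM in GV14, GV14c and GV15 (log2 change 1.69, SE 0.23, limma adjusted p = 0.000718). ARAF, a RAF kinase that acts on MEK, had 0.480, 0 and 0.758 RPKM in MII14c, MII15 and MII15c, against 2.36, 5.28 and 2.13 RPKM in GV14, GV14c and GV15 (-1.55, SE 0.38, adjusted p = 0.0114). BRAF, another RAF kinase, had a log2 change of -0.37 (adjusted p = 0.379), which was above 0 after quantile normalization. The log2 change was 0.42 for BUB1, a spindle checkpoint kinase (adjusted p = 0.234), and -0.58 for CPEB1, which binds polyadenylation elements in mRNAs such as frog MOS (adjusted p = 0.355). PKMYT1, a kinase that inhibits CDK1, was under the filter at 0.526 RPKM in MII and 0.693 RPKM in GV.

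Over 5 lists of genes around the pathway, 78 genes were tested, of which 17 were higher, 18 lower and 43 missed the threshold; their log2 changes had a median of 0.08, against -0.16 over the 8671 genes. The shares were 21.8% higher and 23.1% lower, against 13.4% higher and 26.9% lower over all tested genes. After quantile normalization the counts were 25 higher and 14 lower, beside 2055 higher and 1828 lower over all genes. Without GV14c and MII15c they were 5 higher and 11 lower, beside 357 and 1286 over all genes. Without MII15c alone they were 6 higher and 13 lower, beside 588 and 1749. Several calls named below lay near the threshold: MSI1 passed in 4 of 15 alternative fits, CDC25C in 5 of 16, NRAS in 7 of 16, and CDK2AP2, MAP3K7 and MAPKAPK5 in 8 of 16 each. PAPD4 passed in 9 of 16, NF1 in 10 of 16, MAP2K5 in 8 of 12 and MAP2K4 in 11 of 16. ARAF, CREB1, DUSP22, LAMTOR1, MAP2K5, MAP2K6 and PEA15, all called lower, averaged under 1 RPKM in MII. They reached the filter for testing only through their GV values. Among them, PEA15 passed in 3 of 15 alternative fits and LAMTOR1 in 10 of 15.

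Among RAS, RAF and scaffold genes that feed into MEK, 5 of 25 tested were higher (20%) and 6 lower (24%; median 0.10). The small GTPase NRAS (log2 change 0.72, adjusted p = 0.0492) and SOS1, which loads RAS with GTP (1.01, adjusted p = 0.01), were higher. So were NF1, which turns RAS off (1.2, adjusted p = 0.0278), and the scaffold IQGAP1, at 126 ± 28.7 RPKM in MII and 34.1 ± 3.53 RPKM in GV (1.83, adjusted p = 0.000507). PEBP1, an inhibitor of RAF kinase signalling to MEK, was lower at 48.8 ± 8.86 RPKM in MII and 131 ± 44.0 RPKM in GV (-1.37, adjusted p = 0.00429). LAMTOR2, part of a scaffold for MEK1 on late endosomes, was lower at 1.74, 7.62 and 3.19 RPKM in MII14c, MII15 and MII15c, against 139, 115 and 163 RPKM in GV14, GV14c and GV15. SPRY2, an inhibitor of RAS signalling, was also lower (-1.78, adjusted p = 0.00306).

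Of 14 tested effectors of ERK and RSK, 3 were higher (21.4%) and 3 lower (21.4%; median 0.02). Beside FBXO43, the higher ones were MKNK1, an ERK-activated kinase of the translation factor eIF4E (0.91, adjusted p = 0.0187), and CDK2AP2 (0.71, adjusted p = 0.0371). TOB1, an antiproliferative protein that ERK phosphorylates, had 11.7 ± 1.44 RPKM in MII and 56.1 ± 17.9 RPKM in GV (-2.12, adjusted p = 0.000582). CREB1, a transcription factor that RSK phosphorylates, was lower by -1.88 (adjusted p = 0.00476), and the CDK phosphatase CDC25C by -0.53 (adjusted p = 0.0467).

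Of 10 tested MAPK phosphatases, 3 were higher (30%) and 2 lower (20%; median 0.09). The higher ones were PPM1B (1.18, adjusted p = 0.00766), PPM1A (0.91, adjusted p = 0.0159) and PPM1D (0.85, adjusted p = 0.0253), metal-dependent serine and threonine phosphatases. The dual-specificity phosphatases DUSP10, which acts on p38 and JNK, and DUSP22 were lower. DUSP10 had 54.5 ± 13.8 RPKM in MII and 130 ± 33.9 RPKM in GV (-1.24, adjusted p = 0.00686), and DUSP22 had 0.293 ± 0.128 RPKM in MII and 3.62 ± 1.08 RPKM in GV (-1.81, adjusted p = 0.00216).

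In the parallel p38, JNK and ERK5 modules, 3 of 16 tested genes were higher (18.8%) and 5 lower (31.2%; median -0.28). MAPK8, which encodes JNK1, was at 16.6 ± 1.05 RPKM in MII and 6.19 ± 0.253 RPKM in GV (1.29, adjusted p = 0.00359); MAP3K7 (0.87, adjusted p = 0.0463) and MAPKAPK5 (0.76, adjusted p = 0.043) were higher too. The p38 kinase MAPK14 was at 7.18 ± 1.58 RPKM in MII and 19.4 ± 1.60 RPKM in GV (-1.34, adjusted p = 0.00426). Its activator MAP2K6, at 0.251 RPKM in MII and 5.44 RPKM in GV (-2.34, adjusted p = 0.000626), was lower as well. So was the MAPK14 target MAPKAPK2 (-2.21, adjusted p = 0.0045). MAP2K4, which activates JNK and p38 (-1.34, adjusted p = 0.0262), and MAP2K5, which activates ERK5 (-1.22, adjusted p = 0.027), were the remaining lower genes. MAP2K5 was at 0.250 RPKM in MII and 1.94 RPKM in GV.

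Of 13 tested genes that act on MOS mRNA or on cytoplasmic polyadenylation, 3 were higher (23.1%) and 2 lower (15.4%; median 0.14). CPEB4 (1.80, adjusted p = 0.000452) and PUM2, which binds Pumilio elements (1.19, adjusted p = 0.00613), were higher, as was the cytoplasmic poly(A) polymerase PAPD4 (0.70, adjusted p = 0.0418). CPSF3, the endonuclease of the cleavage and polyadenylation complex, had 9.79 ± 0.901 RPKM in MII and 39.4 ± 9.29 RPKM in GV (-1.88, adjusted p = 0.000672). MSI1, which binds the MOS 3′ UTR in frogs, was lower (-1.33, adjusted p = 0.0398).

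**Figure D5:**
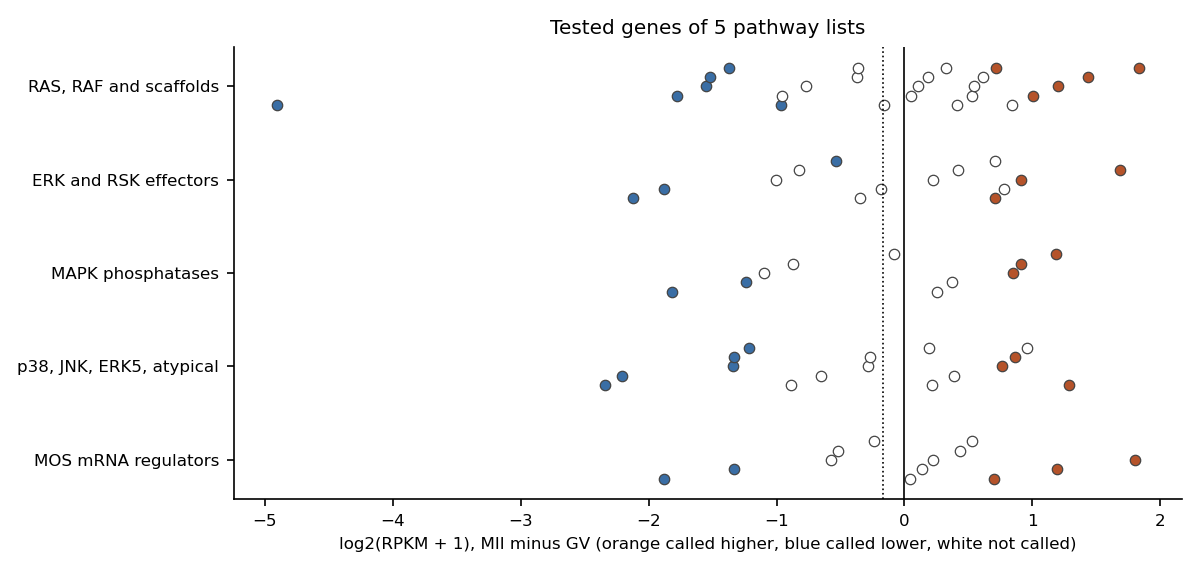
Log2 change of RPKM + 1, MII minus GV, of the tested genes in 5 pathway lists; each point is a gene, filled where limma's test was passed, and the dotted line marks the median of all tested genes. Calls lie on both sides in every list, from 2 to 6 lower and from 3 to 5 higher, and LAMTOR2 is the lowest point.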

How the data were processed

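RNA of individual oocytes was amplified with a kit for very low input and read as single Illumina reads, per the labels. The authors deposited RPKM for 6 libraries, per the file headers, and an annotation with coordinates; their submitters' processing notes name DESeq, whose role is not given in the sources used here, nor are the aligner, counting tool and build. Stage came from the Stage label, since a further label describes every sample as in vitro matured. The columns GV14c and MII15c match no sample title and were used by stage only. Nothing says that libraries come from separate animals; p-values therefore reflect variation among these libraries alone.

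Genes averaging at least 1 RPKM were tested with limma 3.58.1 in R 4.3.3 (mean-variance trend, Benjamini-Hochberg, threshold 0.05) on log2(RPKM + 1), a scale that understates changes of low genes. No count model was applied, as RPKM are not counts. The script was tested on simulated data. Single values and shares used two-sided exact permutation tests.

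Depth was the number of reads at which low RPKM (0.5 to 20 reads) of genes with coding-only models became whole. The 3616 models used leave out genes with predicted mRNAs, whose length is not the coding length; this restriction was chosen after a first pass over 3859 models. Within 0.1 of a whole read lay 97.4% to 98.9% of low values, and 86.9% to 93.3% over the 3859. Read numbers for a gene rest on the length that made its 6 values whole. Without molecular identifiers, reads cannot be taken as independent molecules. Read numbers therefore cover the counting error of reads only, which can be smaller than that of molecules, and no other source of error.

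The members and lists were chosen with earlier results of these data known. Named genes were the members, 8 pathway genes, up to 4 called genes of smallest p per list with every called gene of a direction holding 5 or fewer, and the 2 genes most like each tested member row. For a symbol with several rows outside the members, the row of highest mean stands. Values of some genes that this rule names are not reported here. Alternatives were other pseudocounts, filters, scalings, terms and libraries left out.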

Additional observations from a re-analysis of the deposited data

How the results depend on the processing

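MAP2K1 on chromosome 10 kept its call in 15 of 16 alternatives; without the columns that match no title its log2 change was 0.86. With both MAP2K1 rows summed, chosen after seeing the data, it passed as well. That sum is mostly the chromosome 10 row and is no separate test. The chromosome 5 row averaged 13.3% of the chromosome 10 row in MII and 12.6% in GV. The chromosome 5 row passed after median-ratio scaling (1.29), quantile normalization (1.35), TPM scaling (1.17) and in the fit that adjusts for the letter c (1.36). Member rows called higher were therefore 2 in those 4 fits and 0 without the untitled columns. Over all genes those 4 fits called 1687, 2055, 1385 and 1468 higher, and 2059, 1828, 2090 and 2975 lower, in that order. With no filter on low values 1 member row was called lower, RPS6KA1, at 0 to 0.174 RPKM in MII. That fit called 741 higher and 1736 lower over 20707 genes. RPS6KA3 changed sign after quantile normalization (0.11). The RPS6KA3 share turned to -16.4 percentage points with RPS6KA6 in the sum, also chosen after seeing the data. Pathway genes called higher and lower numbered 10 and 10 with no filter, beside those 741 and 1736 over all genes. They numbered 5 and 11 without the untitled columns. At a mean of at least 5 RPKM they numbered 18 and 9, beside 1110 and 1558 over 5426 tested genes. Leaving out 1 library gave 6 to 17 called higher and 13 to 17 lower, beside 588 to 1335 higher and 1749 to 2246 lower over all genes. Over all genes, the fit without the untitled columns called 357 higher and 1286 lower. The fit with the number 14 or 15 as a replicate block called 1 member row higher and 0 lower, beside 1141 and 2134 over all genes. The cause of these shifts was not tested. MAP2K2, MAPK3, RPS6KA1 and RPS6KA2 averaged under 1 RPKM and were compared with few reads, and there were 3 libraries a stage for all tests.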
